A study of Homo sapiens with 9 samples.

Results

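The CXCL chemokine cluster was described by its chromatin contacts in growing and RAS-induced senescent (RIS) fibroblasts. Its 6 members, CXCL8, CXCL6, CXCL1, CXCL5, CXCL3 and CXCL2, are the genes with a CXCL symbol that lie within chr4:74600001-75000000 of hg19, and they were taken by symbol and position out of 20098 protein-coding genes. Each member starts in a 40 kb Hi-C bin of its own, and their contacts were followed over the 62 bins from position 73520001 to 76000000. IMR90 is a widely used line of human diploid lung fibroblasts. All libraries came from IMR90 cells stably infected with ER:HRAS(G12V), an oncogene fused to the oestrogen receptor that stays inactive without 4-hydroxytamoxifen (4OHT). The 3 growing Hi-C libraries received no 4OHT, and the 2 RIS libraries came from cells given 100 nM 4OHT for 6 days. Growing replicate 3 also carried an MSCV vector. Neither transcripts nor proteins were measured in these libraries, so the identity of the cells could not be checked against marker genes here.

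The files gave 109967509 and 150689993 contacts for the RIS libraries and between 154318992 and 180775315 for the growing ones, so that mean RIS depth was 76.6% of mean growing depth. Contacts between chromosomes made up 9.60 to 9.81% of RIS contacts and 7.04 to 7.56% of growing contacts. Their part in the results below was not tested. The labels do not tie the libraries to separate cultures, and p-values measure the spread between these libraries. The 4 capture Hi-C libraries, 2 per group, listed no value in any of the 250 bins of 10 kb in the window, so every value below is from Hi-C.

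The members encode small secreted proteins that call neutrophils and other cells through the receptors CXCR1 and CXCR2. They are components of the senescence-associated secretory phenotype, the mix of cytokines and enzymes that senescent cells release, and NF-κB is a well-known activator of their promoters. The genes arose by duplication and sit side by side, with the platelet chemokine genes PF4V1, PF4 and PPBP among them. The albumin family (ALB, AFP, AFM) and RASSF6, a RAS-association domain gene, lie on one side, and MTHFD2L, a mitochondrial folate enzyme gene, and the EGF receptor ligand genes EPGN, EREG, AREG and BTC on the other.

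A promoter stretch of each member is shown because it bears on how the duplicated genes resemble each other in a feature that their position did not select. The sequences are from the RefSeq promoter table of GRCh38.p14, which runs from 250 bases before to 50 bases after each gene start. Each line gives 60 bases, 5′ to 3′ on the strand of the gene, with matches to GGAATTTCC, a form of the NF-κB motif that was searched on both strands, in capitals.
CXCL8: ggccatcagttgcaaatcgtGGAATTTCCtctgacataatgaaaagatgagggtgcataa
CXCL6: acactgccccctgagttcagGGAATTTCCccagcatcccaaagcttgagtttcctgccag
CXCL1: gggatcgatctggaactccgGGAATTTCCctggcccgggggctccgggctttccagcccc
CXCL5: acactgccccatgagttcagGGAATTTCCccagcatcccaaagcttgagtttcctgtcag
CXCL3: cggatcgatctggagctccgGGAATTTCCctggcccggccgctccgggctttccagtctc
CXCL2: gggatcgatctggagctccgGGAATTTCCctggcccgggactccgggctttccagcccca
All 6 members held the motif once, starting 77 to 91 bases before the gene start of that promoter table. Of all its promoters, 162 of 35116 held it (0.461%). The gene starts used for the bins are from GENCODE and differ for some members. By its GENCODE start of 74904524, the CXCL3 stretch lies inside the gene. By exact match to hg19 chromosome 4, each stretch was found once, at chr4:74606175-74606234 for CXCL8, chr4:74702286-74702345 for CXCL6 and chr4:74735012-74735071 for CXCL1 on the plus strand. On the minus strand it was found at chr4:74864445-74864504 for CXCL5, chr4:74904445-74904504 for CXCL3 and chr4:74964950-74965009 for CXCL2.

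Aligned on the motif without gaps, the stretches of CXCL6 and CXCL5 shared 58 of 60 bases, and those of CXCL1 and CXCL3 shared 54. CXCL2 shared 47 with CXCL1 and 44 with CXCL3, while CXCL8 shared at most 23 with any other member. After the motif, the CXCL2 stretch lacks a base that CXCL1 and CXCL3 have, so its later bases are out of step. Its counts therefore do not show that CXCL2 is less like CXCL1 than CXCL3 is. These counts include the bases of the motif itself, which match in every pair because the stretches were aligned on it. These groups do not follow the order on the chromosome, since CXCL6 and CXCL1 lie on the CXCL8 side of the cluster and CXCL5, CXCL3 and CXCL2 on the other. Among 13 neighbouring genes with an entry, including PF4V1 and PPBP, none held GGAATTTCC, and of 7 other CXCL ligand genes CXCL10 and CXCL11 did. CXCL8 was the one member with TATAAA, present in 11.5% of all promoters, and with TGANTCA, the AP-1 motif, present in 7.71%. A match is a description of the letters in this window and not a site of binding.

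In growing cells most members were in contact with each other more often than their distance alone gives. The level of a contact is given as observed over expected (O/E), the balanced contacts of a bin pair divided by the mean of all pairs at the same distance in that library. Mean O/E was over 1 for 12 of the 15 pairs of member bins in growing cells and for all 15 in RIS. It was highest between the outermost genes: CXCL8 and CXCL2, 360 kb apart, had O/E of 2.62, 2.61 and 2.15 in growing cells against 2.88 and 2.66 in RIS. CXCL1 and CXCL5, on either side of the middle of the cluster, had the lowest, at 0.689, 0.831 and 0.774 in growing cells and 1.13 and 0.931 in RIS. Beyond the cluster, CXCL2 had its strongest contacts with bins on the far side of CXCL8, with O/E of 5.21, 5.28 and 5.58 in growing cells against 5.06 and 4.69 in RIS for the bin that starts at 74440001, inside RASSF6.

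**Figure D1:**
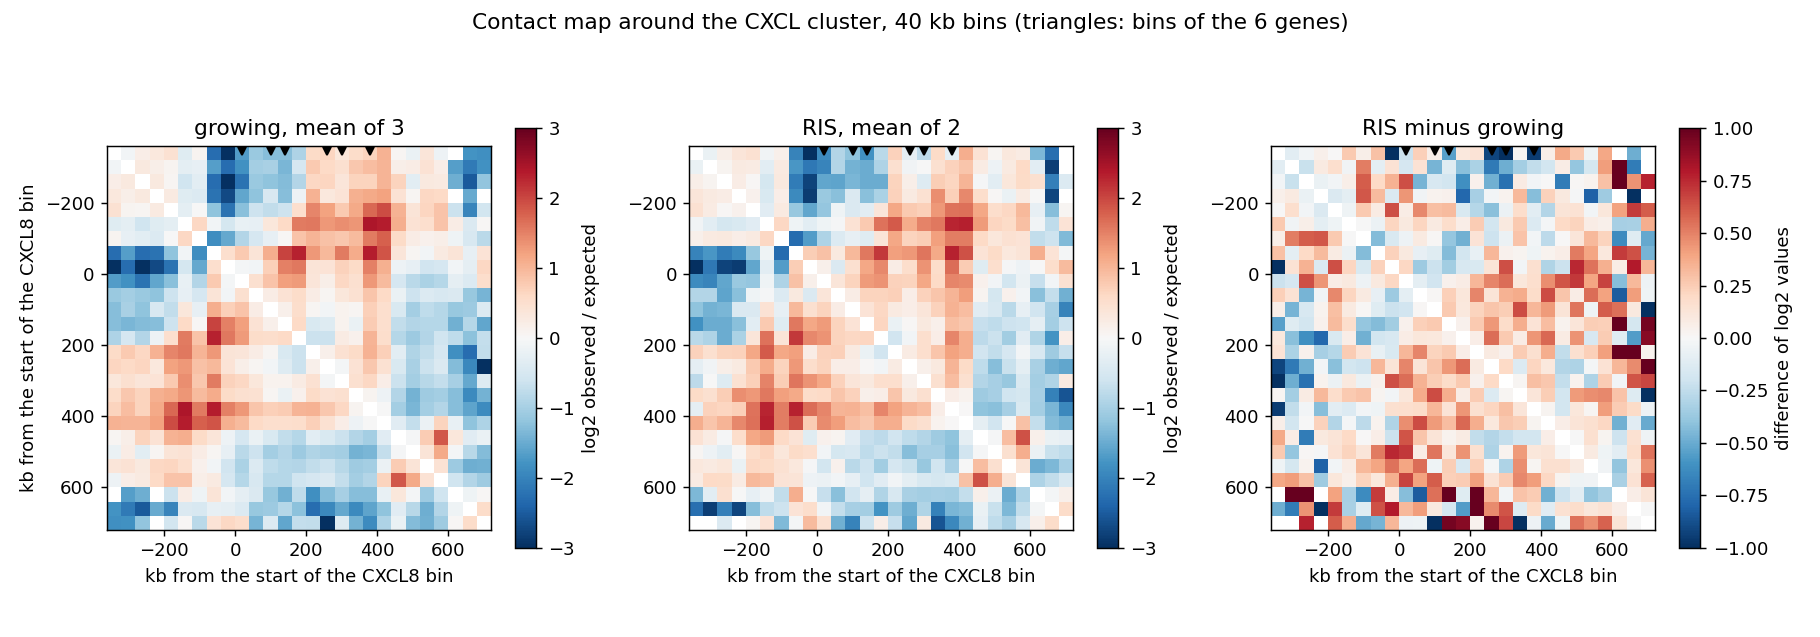
Contacts around the CXCL cluster in 40 kb bins, with distance in kb from the start of the CXCL8 bin on both axes and triangles at the bins of the 6 genes. Colour gives log2 O/E of the growing mean (left) and the RIS mean (middle), and their difference (right, RIS minus growing). The corner where CXCL2 meets the RASSF6 side is strong in both groups, and within the cluster most of the difference is above 0, including between CXCL8 and CXCL3. The noisy stripe 680 kb from CXCL8 is the bin of AREG, which has few contacts.

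Contacts between the genes were compared first. With limma on log2 balanced contacts across all 2087248 bin pairs tested, none of the 15 gene pairs passed a false discovery rate of 5%, and neither did any higher pair genome-wide (0% of pairs called higher and 9.58e-05% called lower). At an unadjusted p under 0.05, 6 of the 15 were higher in RIS and 0 lower, beside 5.07% and 6.2% of all pairs tested. The fitted difference was positive for 14 of 15, with a median of 0.24 on the log2 scale, against -0.0031 over all pairs tested and -0.03 over those up to 360 kb apart. With recovered contacts, one of the weighted tests described below, the median was 0.13, with 5 pairs higher and 2 lower at an unadjusted p under 0.05. That median was 0.075 without growing replicate 3 and 0.084 without RIS replicate 1. The 15 pairs share 6 bins and so are not independent of each other.

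The largest fitted difference among them was between CXCL8, the neutrophil attractant first described as interleukin 8, and CXCL3. Their bins, 280 kb apart, had O/E of 1.71, 1.62 and 1.26 in growing cells against 2.14 and 2.36 in RIS. Both RIS libraries lay above all growing ones, and the fitted log2 difference was 0.52 ± 0.17 (SE, adjusted p = 0.367). It was 0.33 with recovered contacts, 0.23 between libraries with few duplicate reads (growing replicates 1 and 2, RIS replicate 1) and 0.85 between those with many (growing replicate 3, RIS replicate 2). Balanced contacts scaled to the mean depth of the libraries are called scaled contacts from here on. CXCL8 and CXCL5 had 56.1 ± 4.30 of them in growing cells (SD, n = 3) and 74.1 ± 7.17 in RIS (SD, n = 2), also without overlap, and a log2 difference of 0.48 ± 0.15. CXCL1 and CXCL5 had 71.5 ± 6.52 and 94.4 ± 12.4, a difference of 0.45 ± 0.16, again with no overlap between the groups. Among neighbours on the chromosome, CXCL3 and CXCL2 had 207 ± 6.69 scaled contacts in growing cells and 253 ± 11.8 in RIS, and CXCL6 and CXCL1 had 357 ± 26.8 and 432 ± 17.6. These differences were 0.28 ± 0.09 and 0.24 ± 0.08 on the log2 scale.

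CXCL8 and CXCL6, the granulocyte chemotactic protein gene 80 kb away, had the one negative difference. Their scaled contacts were 265, 234 and 237 in growing cells and 197 and 232 in RIS, so both RIS libraries lay below all growing ones, replicate 2 by little. The log2 difference was -0.21 ± 0.09 (SE, adjusted p = 0.448). In all, both RIS libraries lay above all growing ones for 8 of 15 gene pairs and below them for 1, beside 11.3% and 24.8% of all bin pairs tested up to 360 kb apart. On the O/E scale, which takes out the mean decay with distance, it was 13 and 1 of 15, beside 15.2% and 20.5%. The expected contacts of RIS libraries differed from those of growing ones by 1.07% at 40 kb and by -6.99% at 280 kb.

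**Figure D2:**
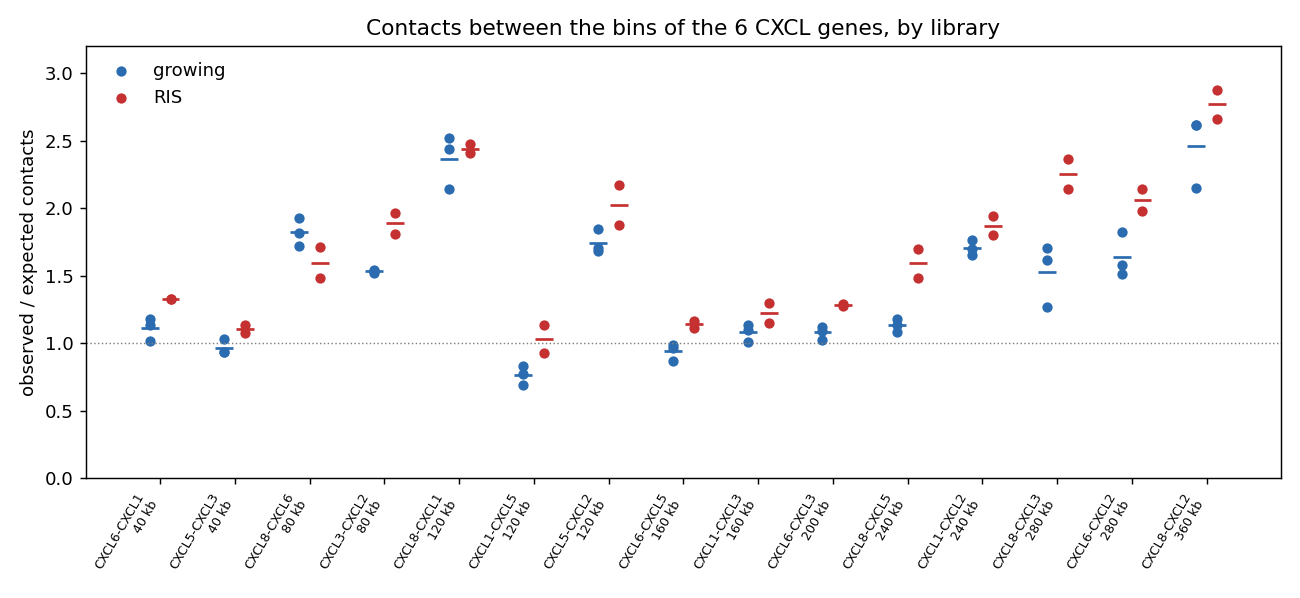
O/E contacts of the 15 pairs of CXCL gene bins, ordered by the distance given under each pair, with 1 point per library (3 growing, 2 RIS) and a line at each group mean. CXCL8 with CXCL6 is the pair whose RIS points lie below, and CXCL8 with CXCL3 goes from a mean of 1.53 to 2.25; the dotted line marks the level expected at that distance.

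Beside limma, 2 weighted tests were run. Both weight each library by the number of contacts behind its value (voom); one takes the recovered contacts and the other, added after the data had been seen, the balanced values. They called 0.789% and 0.334% of all pairs higher, and 0.378% and 0.176% lower. With weights on balanced values, 3 of the 15 gene pairs rose in RIS: CXCL3 with CXCL2 (log2 difference 0.27, adjusted p = 0.0295), CXCL8 with CXCL3 (0.54, adjusted p = 0.0304) and CXCL6 with CXCL1 (0.24, adjusted p = 0.0332). With recovered contacts, none rose and CXCL8 with CXCL6 fell by 0.35 (adjusted p = 0.0205). None of the 3 rises was called without growing replicate 3, RIS replicate 1 or RIS replicate 2 (0 of 15), and the fall was not called without growing replicate 1 or either RIS library (0 of 15). The coverage of the member bins before balancing differed by -0.18 to -0.02 between RIS and growing libraries on the log2 scale, relative to the median bin of each library, and recovered contacts are not corrected for it. Its part in these calls was not tested.

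Contacts with the stretch before CXCL8 were compared next. This stretch is the 2 bins of chr4:74520001-74600000, between RASSF6 and CXCL8. The study places enhancers there, and it selected contacts of several members with them as changed on these same libraries, so the values are not independent evidence of a direction. CXCL1, a growth-regulated chemokine of melanoma cells and fibroblasts, is described first. Its bin and the bin that starts at 74520001, 200 kb apart, had 231, 240 and 248 scaled contacts in growing cells and 167 and 172 in RIS. The groups did not overlap, with 29.3% fewer contacts in RIS. The limma difference was -0.50 ± 0.09 (SE, adjusted p = 0.273). It fell by 0.51 with weights on balanced values (adjusted p = 8.31e-05) and by 0.70 with recovered contacts, 482, 566 and 603 against 231 and 288 (adjusted p = 2.99e-08). With weights on balanced values and RIS replicate 2 left out, 0 member pairs in the window were called lower, this one included.

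The other bin of the stretch gave 201, 191 and 223 scaled contacts with CXCL1 in growing cells and 159 and 152 in RIS, again without overlap (limma log2 difference -0.39 ± 0.11, unadjusted p = 0.00595, not called). This pair fell with recovered contacts (adjusted p = 0.00449) and missed the threshold with weights on balanced values (adjusted p = 0.0738). CXCL6 had 156, 155 and 155 scaled contacts with the first bin in growing cells and 131 and 144 in RIS, also without overlap, and none of the tests called it.

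CXCL8 itself and the genes on the far side of the cluster had differences of either sign. CXCL8 had 229, 244 and 226 scaled contacts with the first bin in growing cells against 246 and 252 in RIS, and 279, 328 and 321 against 350 and 373 with the second, which adjoins it. The fitted differences were 0.08 and 0.19 with limma and -0.14 and 0.04 with recovered contacts, so the sign for the first bin depended on the test, and none was called. CXCL3, a close relative of CXCL1 in sequence, had 61.7, 57.7 and 59.9 against 90.2 and 82.5 with the second bin, 44.4% more in RIS. That pair rose with weights on balanced values (adjusted p = 0.0375) but was not called by limma (log2 difference 0.59 ± 0.14, adjusted p = 0.316) or with recovered contacts (adjusted p = 0.114), and without either RIS library 0 member pairs were called higher. CXCL2 with the first bin had 131, 148 and 119 against 115 and 119, which overlap. It fell with recovered contacts (adjusted p = 0.0384) and not with balanced values in either test.

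**Figure D3:**
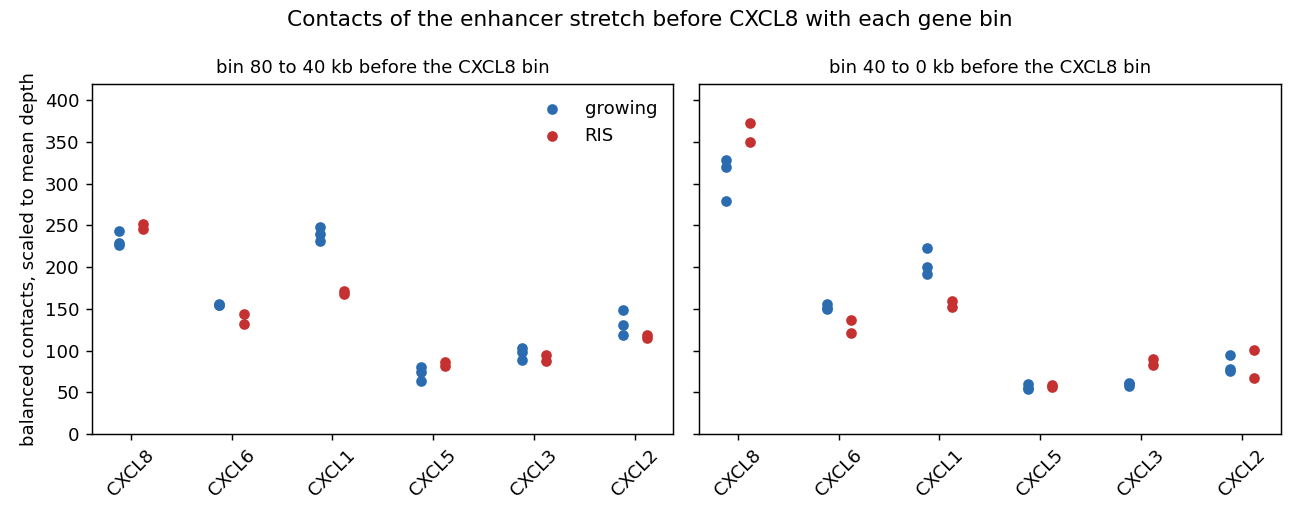
Scaled balanced contacts of each CXCL gene bin with the 2 bins before CXCL8, the farther bin on the left and the adjoining one on the right, with 1 point per library (3 growing, 2 RIS). The RIS points of CXCL1 lie below its growing points in both panels (167 and 172 against 231 to 248 on the left), and those of CXCL8 above.

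Within the cluster, the bin that follows CXCL1, which starts at 74760001, had more scaled contacts with CXCL5 and CXCL2 in both RIS libraries, without a call. With CXCL5, 80 kb away, it had 90.3, 88.6 and 81.5 scaled contacts in growing cells and 119 and 135 in RIS, and with CXCL2 120, 122 and 116 against 156 and 153. Both RIS libraries were above all growing ones in both cases, at unadjusted limma p of 0.00117 and 0.00428. None of the 3 tests called either pair. The bin holds the start of no member and was taken outside the fixed lists, so its values are a description. CXCL3 had 114, 120 and 96.5 against 135 and 123, also without overlap, and the groups overlapped for CXCL6 and CXCL1. Of all bin pairs tested up to 360 kb apart, 11.3% had both RIS libraries above all growing ones and 24.8% below. With CXCL8 the bin had 176, 185 and 164 against 163 and 192, which overlap. With the bin that starts at 74520001 it had 236, 256 and 243 against 214 and 191, all growing libraries above both RIS ones, and this pair fell with recovered contacts (adjusted p = 0.0171) but was not called by limma (adjusted p = 0.372) or with weights on balanced values (adjusted p = 0.134).

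Over their whole contact profiles in the window, the members had 245 different bin pairs with enough contacts to test. Limma called 0 of them, with 16 higher and 9 lower at an unadjusted p under 0.05, beside 5.07% and 6.2% of all pairs tested. Recovered contacts called 0 higher and 5 lower, beside 0.789% and 0.378% of all pairs. Weights on balanced values called 5 higher and 1 lower, beside 0.334% and 0.176%. The median log2 difference over the 245 was 0.04 with limma and -0.09 with recovered contacts, so its sign depended on the test. Both RIS libraries lay above all growing ones for 38 of the 245 and below for 55, beside 9.76% and 21.3% of all pairs tested. Beside the pairs named above, the called ones were CXCL2 with the bin that starts at 74440001, inside RASSF6 (112, 112 and 114 against 97.1 and 88.3 scaled contacts, lower with recovered contacts, adjusted p = 0.0432), and CXCL6 with the bin between CXCL3 and CXCL2 (O/E of 1.03, 1.14 and 0.927 against 1.78 and 1.47, higher with weights on balanced values, adjusted p = 0.0369).

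Towards the albumin family, the contacts of CXCL5, CXCL3 and CXCL2 with ALB were lower in both RIS libraries than in all growing ones. Of all bin pairs tested, 21.3% had both RIS libraries below and 9.76% above. The share at these distances was not counted. Both also lay below for AFP with CXCL6, CXCL1, CXCL5 and CXCL3, and for AFM with CXCL5 and CXCL3. Farther out, this held for COX18 with every member but CXCL2, so it is not particular to ALB. CXCL3 and ALB, 640 kb apart, had 21.5, 18.9 and 21.5 scaled contacts in growing cells and 8.88 and 8.03 in RIS, a log2 difference of -1.08 (limma adjusted p = 0.323). It rested on 31, 32 and 36 recovered contacts against 9 and 11, and none of the 3 tests called it. CXCL8, CXCL6 and CXCL1 had O/E of 0.160 to 0.518 with ALB over all libraries, with overlapping groups. Towards the EGF receptor ligands, EPGN had scaled contacts of 9.24, 11.0 and 11.8 with CXCL8 in growing cells against 14.9 and 16.0 in RIS, a log2 difference of 0.67 (limma adjusted p = 0.460). Both RIS libraries also lay above all growing ones for EPGN with CXCL6 and CXCL2, the groups overlapped for CXCL1, CXCL5 and CXCL3, and none of the tests called any of the 6. EREG had log2 differences of 1.15 with CXCL1 (RIS above) and -0.42 with CXCL8 (RIS below), and overlapping groups with the other members. These EREG pairs with CXCL1 and CXCL8 rested on 2 to 7 recovered contacts per library, and contacts of the AREG bin with CXCL6, CXCL1 and CXCL5 rested on 0 to 3 recovered contacts per library.

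Whole stretches were compared by the mean O/E of all bin pairs between them, on the log2 scale, with a two-sided exact permutation test that cannot go below p = 0.1 for 3 against 2 libraries. The 10 bins of the cluster with each other had 0.45, 0.48 and 0.38 in growing cells and 0.63 and 0.66 in RIS, a difference of 0.21 with exact p = 0.1, which became 0.10 with recovered contacts (exact p = 0.2). The cluster with the 18 bins from MTHFD2L to BTC had -0.53, -0.50 and -0.49 against -0.32 and -0.31, a difference of 0.19 with exact p = 0.1, and 0.077 with recovered contacts. The stretches on either side, ALB to RASSF6 and MTHFD2L to BTC, had contacts with each other that differed by 0.22, from 0.29 ± 0.06 (SD, n = 3) to 0.51 ± 0.03 (SD, n = 2), and by 0.11 with the median in place of the mean, where the cluster with itself differed by 0.20. The cluster with ALB to RASSF6 went from 0.46 ± 0.01 (SD, n = 3) to 0.36 ± 0.04 (SD, n = 2), a difference of -0.10 with exact p = 0.1, which became -0.02 with the expected contacts of chromosome 4 alone (exact p = 0.3), -0.38 with the median and -0.15 with recovered contacts (exact p = 0.1 for both). The cluster with the stretch before CXCL8 had 1.23, 1.23 and 1.23 against 1.21 and 1.16, a difference of -0.04 whose sign changed to 0.02 when the expected contacts were taken from chromosome 4 alone and to 0.15 with the median in place of the mean.

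The insulation score at a bin edge is the log2 of the mean contacts across it, between the 5 bins (200 kb) on each side, relative to the chromosome, and a low score marks a border. In growing cells the cluster lay between borders at position 74520000, just beyond the start of RASSF6, and position 75040000, inside MTHFD2L, with a shallower dip between CXCL1 and CXCL5. All 3 dips were found at the same edges in RIS. At the dip between CXCL1 and CXCL5, 74800000 on chromosome 4, the score was 0.22, 0.23 and 0.06 in growing cells against 0.55 and 0.51 in RIS. It rose by 0.36 ± 0.05 in RIS (SE, limma adjusted p = 6.15e-05 over 67785 edges). That is a 1.28-fold increase relative to the chromosome mean of each library, and not in the contacts across this point themselves.

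Of the 9 edges inside the cluster, 7 rose and 0 fell, beside 20.3% of all edges called higher and 25.8% called lower. Their median difference was 0.26, against -0.0069 over all edges. The edges share bins and are not independent. The 2 that were not called are those between CXCL8 and CXCL6, where the score was 0.92 to 0.99 in growing cells and 0.91 to 0.99 in RIS. Towards the other end, the edge between CXCL5 and CXCL3 rose by 0.28 ± 0.04 (adjusted p = 6.09e-05) and the edge just before CXCL2 by 0.27 ± 0.04 (adjusted p = 9.53e-05).

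The score was also compared at the cluster's own borders. The border at position 75040000 went from -0.55 ± 0.01 (SD, n = 3) to -0.41 ± 0.05 (SD, n = 2), a rise of 0.14 with adjusted p = 0.0230. The edges on either side of it rose by 0.18 and 0.17. The border at position 74520000 had -0.88, -0.94 and -0.94 against -0.79 and -0.80, a difference of 0.13 with adjusted p = 0.0653. Rises were seen outside the cluster too, since 28 of 62 edges in the window were called higher. The 6 called lower all lie near COX18, a cytochrome oxidase assembly gene, where the score at position 73880000 fell by 0.60 ± 0.07 (adjusted p = 2.45e-05).

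**Figure D4:**
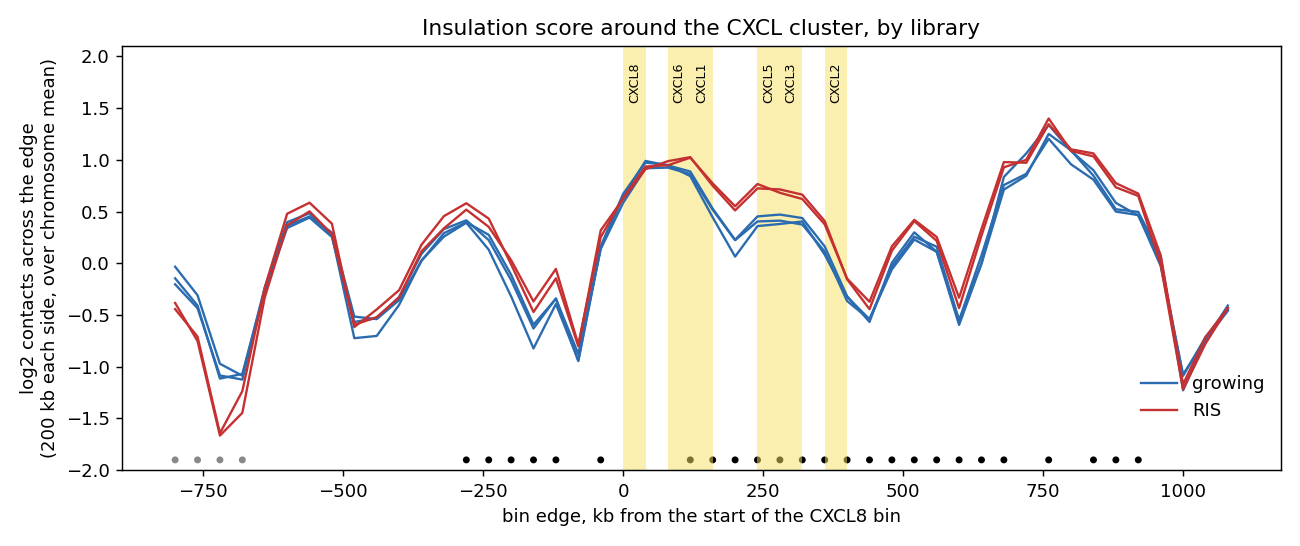
Insulation score at each bin edge around the cluster, against its distance in kb from the start of the CXCL8 bin, with 1 line per library (3 growing, 2 RIS) and the bins of the 6 genes shaded. Black dots mark edges called higher in RIS and grey dots edges called lower at a false discovery rate of 5%; from the edge between CXCL6 and CXCL1 to CXCL2 both RIS lines run above all growing lines, and at the 2 edges between CXCL8 and CXCL6 the groups overlap.

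The contact of each gene bin with either side was measured as the log2 mean O/E over 80 to 520 kb. The levels depended on where in the cluster a gene lies. Towards ALB, the growing mean went from -0.74 for CXCL8, through 0.0080 for CXCL6, 0.41 for CXCL1, 0.52 for CXCL5 and 0.70 for CXCL3, to 1.38 for CXCL2. Towards MTHFD2L and BTC it went from 0.59 for CXCL8 to -1.17 for CXCL2. Neighbouring bins share most of the region over which this is averaged. The gene names give the direction only. BTC lies beyond 520 kb from every member, and ALB lies beyond it from CXCL5, CXCL3 and CXCL2. On the side that faces other members, the region includes bins of the cluster itself.

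Towards MTHFD2L and BTC, 2 of the 6 members rose in RIS, beside 6.24% of 13772 promoter bins called higher and 5.21% called lower. For both, the region averaged includes bins of the cluster, so these rises are not separate from those between its bins. CXCL6 had -0.05, -0.02 and -0.16 in growing cells and 0.30 and 0.22 in RIS, a rise of 0.33 ± 0.08 (SE, limma adjusted p = 0.0301). CXCL8 had 0.62, 0.67 and 0.49 against 0.85 and 0.86, a rise of 0.26 ± 0.07 (adjusted p = 0.0438). CXCL1 had -0.33, -0.26 and -0.32 against 0.0026 and -0.07, a difference of 0.27 ± 0.07 that missed the threshold (adjusted p = 0.0528). Neither of the 2 calls held with any 1 library left out (0 of 6 called each time), and the 2 lie close to the threshold. The median difference of the 6 members was 0.23, against 0.0074 over all promoter bins.

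Towards ALB, 0 of 6 members were called, beside 6.44% of promoter bins called higher and 4.94% called lower. CXCL1 had 0.38, 0.41 and 0.45 against 0.24 and 0.37, the one member with both RIS libraries below all growing ones. Both lay above for CXCL3, with 0.73, 0.73 and 0.64 against 0.86 and 0.93 (adjusted p = 0.0664). The same held for CXCL2, with 1.38, 1.42 and 1.34 against 1.51 and 1.47 (adjusted p = 0.146). The share of all promoter bins that separate in this way was not counted. Over both sides together, CXCL8 rose by 0.21 ± 0.06 (adjusted p = 0.0386) and CXCL3 by 0.20 ± 0.05 (adjusted p = 0.0338), beside 8.44% of promoter bins called higher and 4.65% called lower, and without any 1 library 0 of 6 were called. Over 80 to 1000 kb 0 of 6 were called as well, with a difference of 0.15 for CXCL8 and of -0.016 for CXCL3, which turns its direction. PF4V1 shares its bin with CXCL6, PF4 and PPBP share theirs with CXCL5, and the start of MTHFD2L lies in that of CXCL2, so their values are the same.

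**Figure D5:**
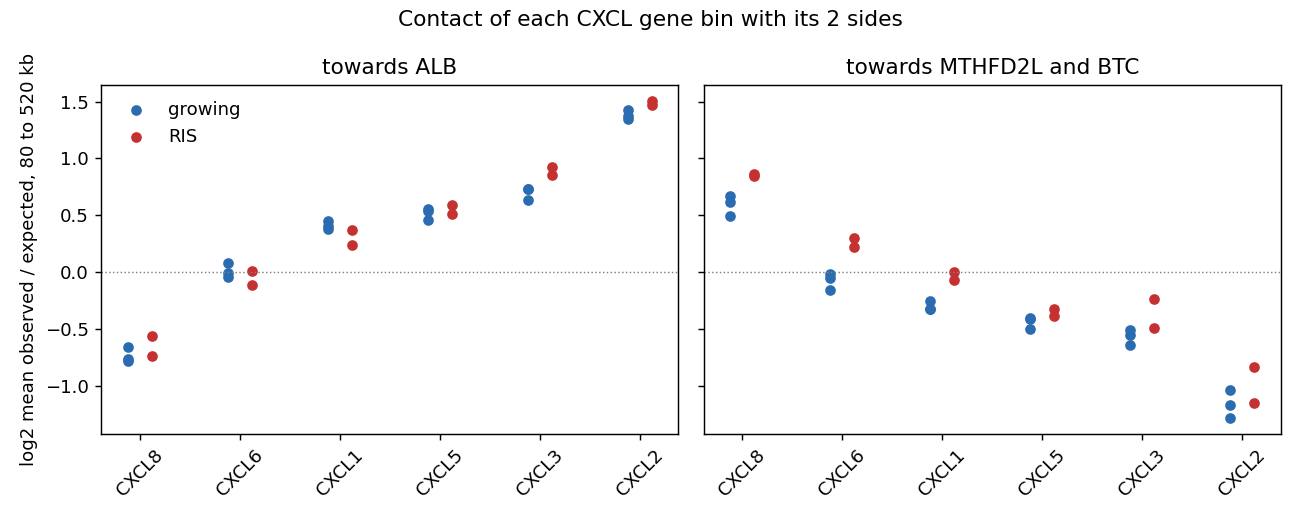
Contact of each CXCL gene bin with the region 80 to 520 kb away towards ALB (left) and towards MTHFD2L and BTC (right), as log2 mean O/E, with 1 point per library (3 growing, 2 RIS). The level is lowest for CXCL8 and highest for CXCL2 on the left, with the opposite order of these 2 genes on the right. On the right the RIS points of CXCL8, CXCL6 and CXCL1 lie above all their growing points. The share of all promoter bins that separate in this way was not counted.

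The other genes of the chemokine system were read in the same way. Of 8 other CXCL ligand genes, 2 rose and 0 fell towards higher coordinates, where 6.24% of promoter bins were called higher and 5.21% lower. These were CXCL14 by 0.57 ± 0.07 (adjusted p = 0.0103) and CXCL17 by 0.40 ± 0.06 (adjusted p = 0.0139), while the list's median was -0.03. Of 8 receptor genes, CXCR4 rose by 0.39 (adjusted p = 0.0321), ACKR3, a receptor that takes up CXCL12, rose by 0.26 (adjusted p = 0.0295), and CXCR5 fell by 0.46 (adjusted p = 0.0191). CXCR2, the main receptor of the members, had a difference of 0.0047 (adjusted p = 0.981). Of 12 genes for inducers of these chemokines, such as IL1A, IL6 and RELA, 0 were called on that side. Towards lower coordinates 2 of these 12 fell, RELA by 0.68 (adjusted p = 0.0177) and NFKB1 by 0.52 (adjusted p = 0.0442), beside 4.94% of promoter bins called lower. Both encode NF-κB subunits, as do NFKB2 and REL, whose differences of -0.029 (adjusted p = 0.789) and -0.095 (adjusted p = 0.479) were not called.

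The cluster lay in the A compartment in every library, the compartment of gene-rich, active chromatin, with scores from 0.75 to 1.45 in the bins of 120 kb that hold its members. The score is the first principal component of the contact map of a chromosome, scaled to an SD of 1. The bin of CXCL8 and the stretch before it had 1.34, 1.31 and 1.45 in growing cells and 1.11 and 1.01 in RIS. It fell by 0.31 ± 0.07 (SE, limma adjusted p = 0.0118), beside 17.1% of 23299 bins called lower, and it was 1 of 4 member bins called. Without RIS replicate 2, 0 of 4 were called. The bin of CXCL6 and CXCL1 had 1.21, 1.26 and 1.26 against 1.12 and 1.09, which did not pass (adjusted p = 0.0781). The bins of CXCL5 and of CXCL3 and CXCL2 both differed by 0.09, within the spread of the libraries. On the other side of CXCL8, the adjoining bin, which holds RASSF6, rose by 0.32 (adjusted p = 0.0291). The bin after CXCL2, in MTHFD2L, rose by 0.23 (adjusted p = 0.0212), and the bin of BTC by 0.66, from -0.40 ± 0.11 (SD, n = 3) to 0.26 ± 0.01 (SD, n = 2), beside 21.4% of bins called higher.

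The genes whose changes were most like the mean of the 6 members, over local contact on either side, insulation at the nearest edge and compartment score, each divided by its SD over all genes, were CCNT1, GARNL3, CLDN4, XRN1 and KPRP, out of 17639 genes ranked. Genes within 2 Mb of the cluster were left out of this search. The changes were RIS minus growing means of 3 and 2 libraries. CCNT1 on chromosome 12 had 0.03 and 0.22 for the 2 sides, 0.19 for insulation and -0.05 for the compartment score, beside 0.04, 0.22, 0.18 and -0.05 for the mean of the members. The members were themselves spread around this mean, with CXCL8 the farthest of the 6 at a distance of 1.70 SD units and CXCL6 the nearest at 0.821. Of the genes ranked, 77.5% lay farther from the mean than CXCL8 and 95.8% farther than CXCL5, so many other genes lay nearer to it.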

How the data were processed

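Hi-C libraries of 3 growing and 2 RIS samples of IMR90 cells were made with HindIII. The authors deposited balanced signal for pairs of 40 kb bins on hg19, and the submitters' processing notes name FastQC and HiC-Pro. Each library's balanced signal sums to 200000000. The bins' balancing factors were estimated from values between chromosomes, taken to be mostly single contacts. Dividing by these factors gave whole contacts for 100% of values. The tolerance was 0.05 up to 20 contacts and grew with the count above that, so it tests large counts little. Balanced values were scaled to the mean depth of 154232455 contacts.

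Bin pairs up to 2 Mb apart with a mean scaled value of at least 5 were tested as log2(value + 0.5), after loess, with limma 3.58.1 (trended variance, R 4.3.3) and Benjamini-Hochberg adjustment at 5% over the whole table. Differences are on that log2 scale, which understates those of low values. Insulation, local contact and compartment scores (bins of 120 kb) were fitted with limma and the same adjustment, without loess or an added value. Compartment scores were fitted without a variance trend. Stretches were compared by a two-sided exact permutation test, whose smallest p is 0.1. Tables were made in Python 3.11.15 with numpy 2.4.6, pandas 2.3.3 and scipy 1.17.1. The scripts were tested on simulated data.

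The members, gene lists and tests were chosen with earlier results of these data known. Genes named are the members, pairs called by any of the 3 tests, the largest differences, fixed lists and the 5 genes most like the members. Gene positions are from GENCODE on hg19. Alternatives were the pseudocount, minimum, loess, window sizes, expected contacts, voom, duplicate classes, a replicate block and each library left out. The replicate numbers did not pair the libraries, with correlations of deviations from the group means between -0.0043 and 0.0043.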

Additional observations from a re-analysis of the deposited data

How the results depend on the processing

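Limma called 0 gene pairs and 0 member pairs in either direction with any 1 library left out and with the replicate block. With recovered contacts, 0 gene pairs were called higher and 1 lower, and 5 member pairs lower (0 to 1 and 1 to 6 without 1 library). With weights on balanced values, chosen after seeing the data, 3 gene pairs were called higher, and 5 member pairs higher and 1 lower (0 to 3, 0 to 4 and 0 to 2 without 1 library). The difference of CXCL1 with the first bin before CXCL8 lay between -0.54 and -0.47 without 1 library. For insulation, 7 edges inside the cluster were called each time, and the inner minimum differed by 0.31 to 0.39.

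With expected contacts of chromosome 4, recovered contacts and libraries with many duplicates, the cluster with itself differed by 0.28, 0.10 and 0.28. With expected contacts of chromosome 4, the median and recovered contacts, the values were 0.023, 0.15 and -0.18 with the stretch before CXCL8, -0.022, -0.38 and -0.15 with ALB to RASSF6, 0.26, 0.15 and 0.077 with MTHFD2L to BTC, and 0.29, 0.11 and 0.14 between the flanks, where libraries with many duplicates gave 0.13. Without 1 library the ranges were 0.18 to 0.23, -0.07 to -0.02, -0.13 to -0.07, 0.18 to 0.20 and 0.20 to 0.26 in the same order. The cause was not tested.

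Compartment bins called were 0 of 3 with bins of 240 kb and 0 to 1 without 1 library. Local contact towards ALB was called for 2 members over 80 to 240 kb and 2 with expected contacts of each chromosome. Towards MTHFD2L it was called for 0 over 80 to 240 kb, 1 over 80 to 1000 kb, 1 without a variance trend, 0 with the replicate block and 0 to 0 without 1 library. Over both sides the counts were 1, 0, 1, 0 and 0 to 0, and 4 with expected contacts of each chromosome. The shares of all promoter bins called under these settings are not given here. These counts can therefore not be set beside a background. Signs reversed over 80 to 1000 kb towards ALB for CXCL8 (-0.19), CXCL5 (-0.17), CXCL3 (-0.039) and CXCL2 (-0.057), and over both sides for CXCL1 (-0.018), CXCL5 (-0.086), CXCL3 (-0.016) and CXCL2 (-0.044). They also reversed for CXCL1 over both sides at 80 to 240 kb (-0.052), for CXCL6 towards ALB with expected contacts of each chromosome (0.0051) and for CXCL5 towards ALB without RIS replicate 2 (-0.0086 to 0.070 without 1 library). The replicate block, in which only 2 numbers are shared, changed no other call. Depth limits pairs of low coverage such as those of AREG and EREG.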
